A study of Mus musculus with 4 samples.

Results

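The prostanoid genes described here are 10 genes that make prostaglandins and thromboxane or bind them, out of 32286 genes in the feature tables of 3 single-cell RNA libraries from mouse popliteal vessels. They were taken by symbol and not by a threshold on a measured value, but the list was chosen with earlier results of these data known. The enzymes are Ptgs1, Ptgs2, Ptgis, Ptges and Ptgds, and the receptors are Ptgir, Ptger2, Ptger3, Ptger4 and Tbxa2r. All 10 had at least 1 unique molecular identifier (UMI, a tag that marks 1 captured RNA molecule) in the kept cells of every library. All mice were adults carrying a Wt1 knock-in allele that makes a fusion of green fluorescent protein and Cre recombinase together with the Ai9 allele, in which Cre switches on tdTomato, so all libraries share this genotype, the Evans blue injection of the footpad and the 10x Genomics 3′ chemistry. PLV replicates 1 and 2 each came from popliteal lymphatic vessels pooled from 2 mice and digested for 30 min with collagenase I, Dispase II, DNase and Liberase. The third library, here called mixed, held hashtagged cells of popliteal lymphatic and blood vessels from 1 pool of 2 mice, digested for 60 min with collagenase I and Dispase II. The hashtag features in its matrix carry names that the deposited note does not tie to a vessel, so hashtags were not used and the library entered as 1 sample of both vessels.

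Prostanoids are short-lived lipids made from arachidonic acid that membrane lipids release. The cyclooxygenases COX-1, encoded by Ptgs1, and COX-2, encoded by Ptgs2, turn arachidonic acid into prostaglandin H2, which terminal synthases then convert: Ptgis makes prostacyclin, Ptges makes prostaglandin E2 and Ptgds makes prostaglandin D2. Ptgir is the prostacyclin receptor, Ptger2, Ptger3 and Ptger4 are receptors of prostaglandin E2, and Tbxa2r is the thromboxane receptor. In vessel walls, prostacyclin and prostaglandin E2 acting through receptors that raise cyclic AMP are known to relax smooth muscle, whereas Tbxa2r and Ptger3 are known to favour contraction, and prostanoids alter the pumping of lymphatic vessels.

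The promoters of both cyclooxygenase genes are shown because these genes had different cell class patterns in every library. They run from 250 bases before to 30 bases after the annotated RefSeq start, with searched motifs in capitals. The 5 short motifs listed here were searched for on both strands, namely the TATA box TATAAA, the GC box GGGCGG, the E-box CACGTG, the C/EBP site TTGCGCAA and the cyclic AMP response element TGACGTCA.
Ptgs1 promoter, GRCm38.p6 chr2:36230176-36230455, plus strand: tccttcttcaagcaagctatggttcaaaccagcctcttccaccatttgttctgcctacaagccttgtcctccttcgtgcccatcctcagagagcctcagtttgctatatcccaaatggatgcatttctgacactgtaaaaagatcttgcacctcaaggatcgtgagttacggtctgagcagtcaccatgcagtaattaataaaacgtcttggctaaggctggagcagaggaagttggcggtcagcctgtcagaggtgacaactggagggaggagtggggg
Ptgs2 promoter, GRCm38.p6 chr1:150099781-150100060, plus strand: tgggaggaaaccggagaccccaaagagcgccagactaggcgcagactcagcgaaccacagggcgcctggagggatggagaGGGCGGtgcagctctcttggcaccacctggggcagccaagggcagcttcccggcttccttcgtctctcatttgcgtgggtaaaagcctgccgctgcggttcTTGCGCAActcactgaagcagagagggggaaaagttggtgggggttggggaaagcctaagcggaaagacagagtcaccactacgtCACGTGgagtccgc
The Ptgs2 promoter held 1 GC box 170 bases upstream of the start, 1 C/EBP match 69 bases upstream and 1 E-box that begins 16 bases after the start base. The Ptgs1 window held none of the searched motifs. It lies inside the gene span given below, which begins at 36216742, so the sequence around that first base was not searched. Over all 32851 RefSeq promoter windows, which run to 50 bases after the start, 35.7% held the GC box, 7.15% the E-box, 0.183% the C/EBP motif, 13.6% the TATA box and 1.79% the cyclic AMP response element. RefSeq promoters were found for 9 of the 10 members. These matches describe letters and not binding.

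The 3 libraries kept 1909, 516 and 994 cells with 9577642, 3390010 and 7770796 UMIs in PLV replicates 1 and 2 and then the mixed library, the order of all values below. They shared no cell barcode. Levels are counts per 1e+06 UMIs (CPM) of the summed cells of a class in a library, and bracketed or plotted intervals are 95% Poisson intervals that cover counting error only. Cells fell into classes by marker lists, of 7 genes for each of the 6 classes that had at least 20 cells in all libraries: 420, 109 and 316 muscle-like cells, 386, 87 and 276 fibroblast-like cells, 296, 60 and 174 blood endothelial-like cells, 192, 65 and 53 lymphatic endothelial-like cells, 39, 28 and 58 pericyte-like cells and 234, 53 and 38 Schwann-like cells. Each class had all 7 of its markers detected in each library, except the lymphatic endothelial-like cells of the mixed library, where Ccl21a and Lyve1 were at 0 and the other 5 were detected. Lymphatic endothelial-like cells also held 1598, 1631 and 1710 CPM of blood endothelial markers, beside 3121, 4056 and 1847 CPM of their own. Their muscle markers summed to 971, 20.5 and 16.9 CPM. Blood endothelial-like cells held 40.2, 62.0 and 28.6 CPM of lymphatic endothelial markers. The part of these markers in the Ptgs1 levels below was not tested. The pericyte-like cells also held 7, 6 and 7 of the 7 muscle markers, at 6666, 7745 and 12019 CPM in sum beside 10819, 8216 and 5073 CPM of their own markers, so in the mixed library the muscle markers stood higher; muscle-like cells held 30632, 31058 and 36778 CPM of them. The genes studied here and the rest of their pathway were kept out of the clustering. The labels call the PLV libraries biological replicates of separate pools, and the lone mixed pool has no replicate.

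The 2 cyclooxygenases had their highest levels in different classes. Ptgs1 was an endothelial transcript with its highest level in lymphatic endothelial-like cells. Ptgs2 was found mainly in fibroblast-like cells and in macrophage-like cells, both of which also held some Ptgs1. Of the 10 members, 6 passed the filter on low counts in the test across the 6 classes (Ptgs1, Ptgis, Ptges, Ptgir, Ptger4 and Tbxa2r), and all 6 differed among classes, where 65.8% of all 10491 tested genes did. Most genes tested differed among classes in this way. The 4 not tested were Ptgs2, Ptgds, Ptger2 and Ptger3, which were low or limited to few sums.

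**Figure D1:**
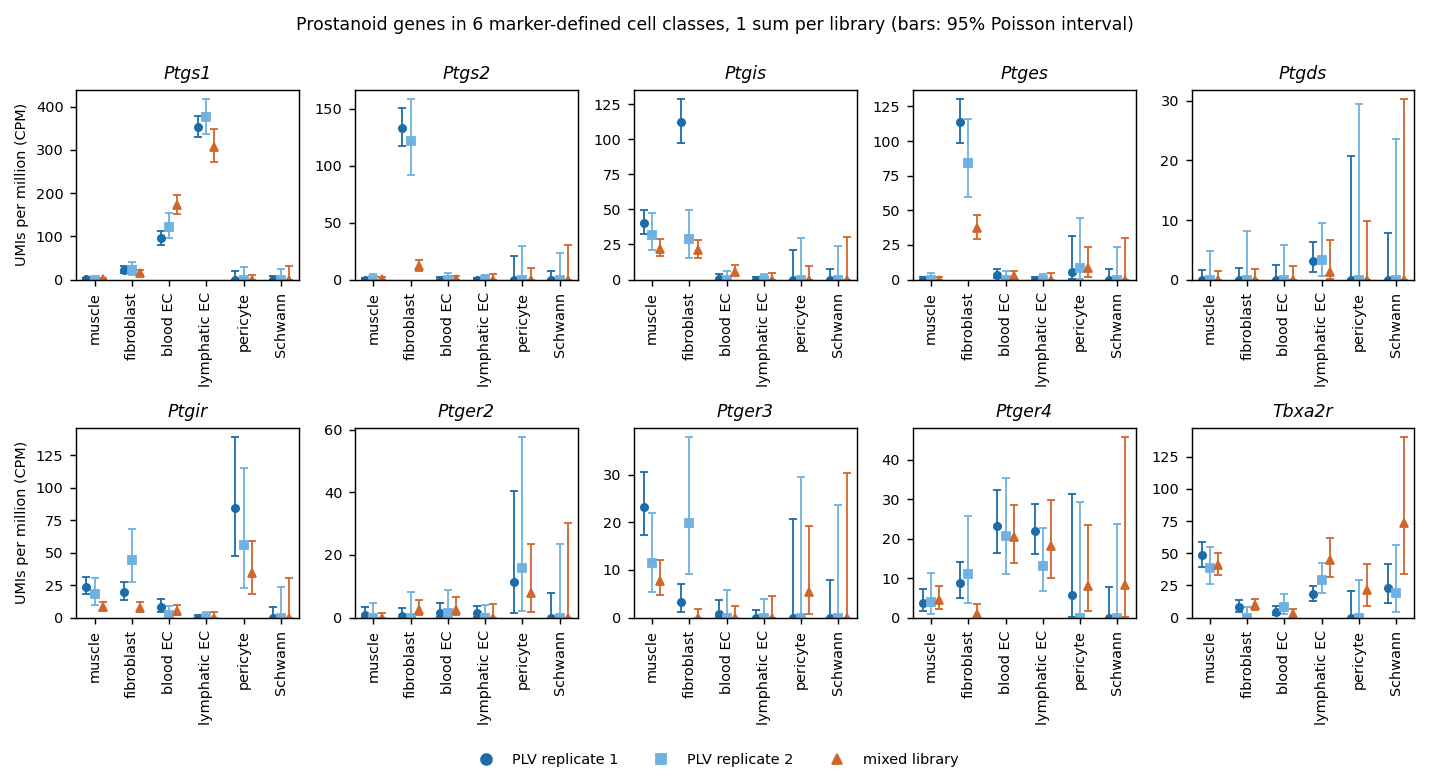
CPM of the 10 members in the 6 classes, 1 point per library with its 95% Poisson interval. Ptgs1 peaked in lymphatic endothelial-like cells, Ptgs2 and Ptges in fibroblast-like cells, and Ptgir in pericyte-like cells. Each panel has its own scale.

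Ptgs1 (ENSMUSG00000047250, chromosome 2, 36216742 to 36258593, GRCm38.p6) stood at 353, 376 and 308 CPM in lymphatic endothelial-like cells. The interval in each library lay above 271 CPM. In blood endothelial-like cells it stood at 95.3, 122 and 173 CPM, and in fibroblast-like cells at 22.3, 22.2 and 16.1 CPM. The 3 classes did not overlap in any library. Muscle-like cells held 1, 0 and 4 Ptgs1 UMIs, and pericyte-like and Schwann-like cells held none in any library. Set against a floor of 3 counts in the pericyte-like cells of each library, the lymphatic endothelial-like level was 20.9-fold, 15.7-fold and 38.5-fold higher. Folds over this floor, here and below, leave out the counting error of the higher level, so they are not lower bounds. Near-empty droplets of the mixed library, with under 50 UMIs each, held 19.0 CPM of Ptgs1, which is above the 16.1 CPM of its fibroblast-like cells and far above the 1.63 CPM of its muscle-like cells. The difference between lymphatic and blood endothelial-like cells was 1.42 ± 0.23 on the log2 scale (standard error, 3 libraries, edgeR adjusted p = 0.0001878), in a pair of classes where 21.1% of genes passed. Blood endothelial-like cells exceeded fibroblast-like cells by 2.41 ± 0.27 (edgeR adjusted p = 2.875e-06), where 37.1% of genes passed.

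At least 1 Ptgs1 UMI was found in 66.1%, 86.2% and 71.7% of lymphatic endothelial-like cells and in 27.0%, 38.3% and 47.1% of blood endothelial-like cells. Median depths were 3498, 7426 and 4959 UMIs in the former and 3758, 9601 and 7443 in the latter. With cells thinned to 1500 UMIs, leaving out 44, 2 and 5 shallower lymphatic endothelial-like and 72, 2 and 38 shallower blood endothelial-like cells, the shares were 43.2%, 49.2% and 37.5% against 12.5%, 12.1% and 22.1%, so the order held at equal depth. In muscle-like cells, with median depths of 4710, 6727 and 7484.5, the share was 0.238% in PLV replicate 1 and 1.27% in the mixed library, and for the 0 of 109 cells in PLV replicate 2 the exact binomial upper limit was 3.33% and the 3-count limit 2.75%.

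Within the blood endothelial-like cells, Ptgs1 was uneven. Clusters led by Selp, a venular adhesion molecule, held 214 CPM in PLV replicate 1, 351 in PLV replicate 2 (12 cells) and 217 in the mixed library. Clusters led by capillary genes such as Gpihbp1, Cd36 or Flt1 held 52.7, 50.2 and 41.1 CPM. The Selp-led level was therefore above the capillary level in every library, with intervals that did not overlap. A cluster of 75 cells in PLV replicate 1 led by Sema3g, Cytl1 and Gja5 held 22.0 CPM, while a cluster of 29 cells in the mixed library led by Cytl1 and Vwf held 533 CPM, more than the 308 CPM of the lymphatic endothelial-like cells beside it. A cluster of 16 cells in PLV replicate 2 with Cytl1, Sema3g and Gja5 among its leading genes was left unnamed for lack of markers and had no UMI of any member. Clusters were not tested against each other.

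**Figure D2:**
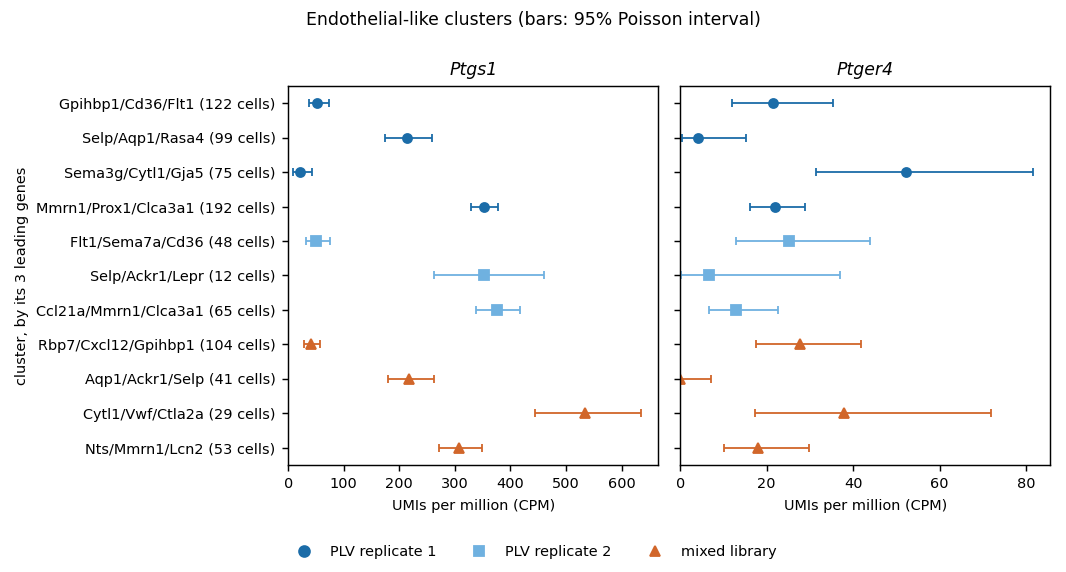
CPM of Ptgs1 and Ptger4 in each endothelial-like cluster, named by its leading genes, with 95% Poisson intervals. Ptgs1 was higher in Selp-led than in capillary clusters of each library, and the Cytl1/Vwf cluster of the mixed library had the highest value, 533 CPM. Ptger4 ran the other way between Selp-led and capillary clusters, on few UMIs.

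Ptgs2 (ENSMUSG00000032487, chromosome 1, 150100031 to 150108234) stood at 133, 122 and 11.8 CPM in fibroblast-like cells, from 245, 55 and 25 UMIs. Both PLV libraries were about equally high and the mixed library was far below them. Across the other 5 classes the gene had 1 UMI in blood endothelial-like cells and 1 in muscle-like cells, both in the mixed library, and 0 elsewhere. Against the floor of 3 counts in lymphatic endothelial-like cells, fibroblast-like cells were 102-fold, 37.6-fold and 3.27-fold higher. The UMIs sat in few cells: 63 of 386, 10 of 87 and 12 of 276 fibroblast-like cells had at least 1, or 16.3%, 11.5% and 4.35%, against 0% in the muscle-like cells of both PLV libraries and 0.316% in those of the mixed library. A single cell held 23 of the 55 UMIs in PLV replicate 2, and without it the level there was 72.8 CPM.

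Ptgs2 was also present in the macrophage-like cells, at 137 CPM in PLV replicate 1 (45 UMIs in 5 of 86 cells) and 73.0 CPM in the mixed library (13 UMIs in 4 of 31 cells). Without the cell with the most Ptgs2 UMIs these levels were 85.8 and 46.4 CPM. That class also held all 5 neutrophil markers, summing to 2523 and 438 CPM, and all 5 dendritic markers, at 657 and 331 CPM. B cell markers in it summed to 258 CPM (2 of 5 detected) and 488 CPM (all 5 detected). The part of these other cell types in the Ptgs2 level was not tested. In PLV replicate 2 a cluster of 37 cells led by Cd74 and H2-Aa, left unnamed because macrophage and T cell markers were equally many, held 147 CPM. Ptgs1 in the macrophage-like cells was 33.4 and 28.1 CPM. Of all Ptgs2 UMIs in kept cells, fibroblast-like cells held 83.6%, 61.8% and 62.5%.

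Of the terminal synthases among the members, Ptges and Ptgis were not found in the class where Ptgs1 was highest. With Ptgds they are the members on the routes to prostaglandin E2, prostacyclin and prostaglandin D2. Other synthases, among them Ptges2 and Ptges3, belong to the pathway list, and their levels in this class are not given here. Ptges3 had 1785, 654 and 1198 UMIs over all kept cells. In lymphatic endothelial-like cells Ptges and Ptgis had 0 UMIs in each library, where 3 counts, the floor used here for a count of 0, would be 1.31 CPM in PLV replicate 1, and Ptgds had 7, 3 and 1 UMIs (3.06, 3.24 and 1.21 CPM). Ptgds was at 0 in every other class, so its few UMIs all lay in these cells.

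Ptges (ENSMUSG00000050737, chromosome 2, 30889471 to 30931020) was a fibroblast transcript. It stood at 114, 84.2 and 37.4 CPM in fibroblast-like cells and at 5.61, 7.98 and 8.0 CPM in pericyte-like cells, the next of the 6 classes, where those values rest on 1, 1 and 3 UMIs. The classes did not overlap. Fibroblast-like cells exceeded pericyte-like cells by 3.59 ± 0.52 on the log2 scale (edgeR adjusted p = 0.0001683, 23.8% of genes passing). Ptges passed the filter on low counts only through its fibroblast-like sums, where it was high, so this test is no separate support. Muscle-like cells had no Ptges UMI, and against the floor of 3 counts there the fibroblast-like level was 83-fold, 21.9-fold and 30.6-fold higher. Perineurial-like cells, seen in only 15 and 10 cells of PLV replicate 1 and the mixed library, held 57.1 and 87.6 CPM from 6 and 5 UMIs. These cells also held 10771 and 53319 CPM of fibroblast markers in sum, beside 4272 and 963 CPM of their own markers. The part of fibroblast-like RNA in this Ptges value was not tested. Near-empty droplets of the mixed library held 6.00 CPM, close to its pericyte-like value.

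Ptgis (ENSMUSG00000017969, chromosome 2, 167203194 to 167252150) was found in fibroblast-like and muscle-like cells. The fibroblast-like values of 112, 28.8 and 21.3 CPM were led by PLV replicate 1, while the muscle-like values of 40.2, 32.0 and 22.0 CPM were closer together. The classes overlapped, and their difference of 0.85 ± 0.42 on the log2 scale did not pass (edgeR adjusted p = 0.134, 39.0% of genes passing). Without the mixed library it was 1.19 ± 0.31 (edgeR adjusted p = 0.004541). Blood endothelial-like cells, known in large vessels as a source of prostacyclin, had 1, 0 and 8 Ptgis UMIs, and all 8 of the mixed library lay in its Cytl1/Vwf-led cluster (33.6 CPM). Near-empty droplets of that library held 7.99 CPM.

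Among the fibroblast-like clusters, Ptges was found in all and Ptgis in some. In PLV replicate 1 a cluster led by Smpd3, Mrgprg and Col6a5, with Pi16 among its leading genes, held 231 CPM of Ptgis, a Myoc-led cluster 52.2, a cluster led by Inmt, Mmp3 and Cxcl14 11.6 and an Apod-led cluster of 41 cells 0 UMIs. Ptges in the same clusters was 138, 101, 90.3 and 111 CPM. In the mixed library a cluster led by Sfrp2, Sfrp4 and Fn1 held 70.4 CPM of Ptgis, a Cxcl14-led cluster 16.3 and a Col4a4-led cluster of 138 cells none, against 47.6, 57.9 and 17.8 CPM of Ptges. Ptgis thus spanned from 0 to 231 CPM among fibroblast-like clusters, and Ptges from 17.8 to 169 CPM. These clusters were defined without the prostanoid genes and were compared as values only.

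**Figure D3:**
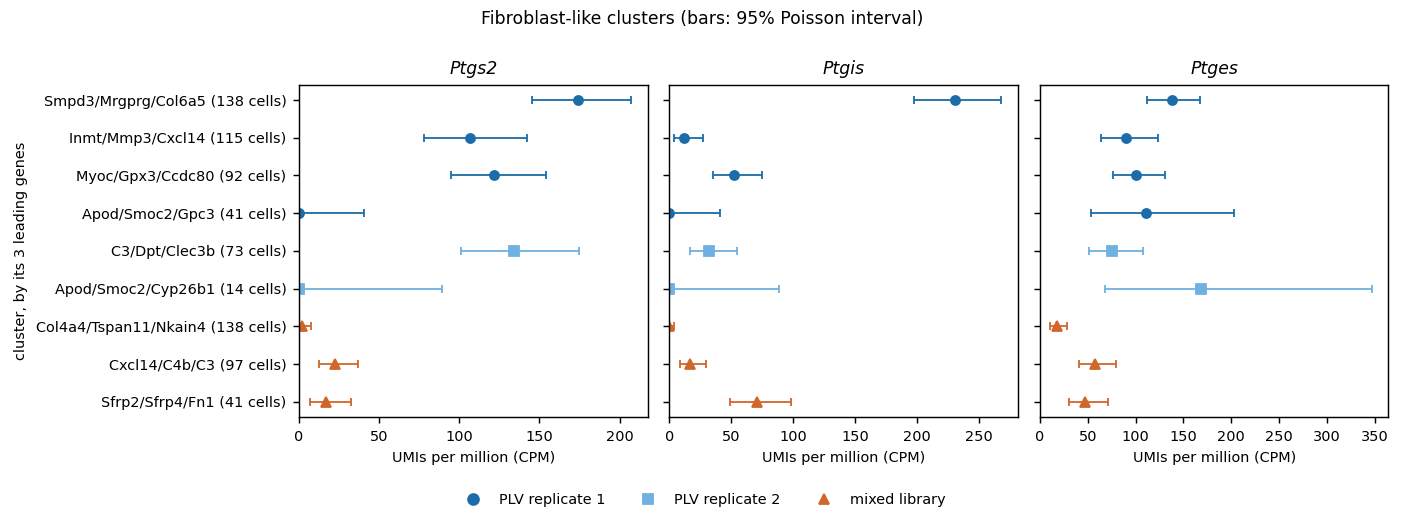
CPM of Ptgs2, Ptgis and Ptges in each fibroblast-like cluster, with 95% Poisson intervals. Ptgis was high in the Smpd3/Mrgprg/Col6a5 cluster of PLV replicate 1 (231 CPM), Ptges was spread over the clusters, and the Ptgs2 values of the mixed library (2.09 to 22.3 CPM) lay below those of every PLV cluster except the Apod-led ones, which had no UMI.

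Among the receptors and within the 6 classes found in all libraries, Ptgir and Ptger2 had their highest class mean in pericyte-like cells, Ptger3 and Tbxa2r in muscle-like cells for most libraries, and Ptger4 in endothelial-like cells. The prostacyclin receptor Ptgir (ENSMUSG00000043017, chromosome 7, 16906490 to 16910905) stood at 84.2, 55.8 and 34.7 CPM in pericyte-like cells, from 15, 7 and 13 UMIs. Fibroblast-like cells held 19.6, 44.3 and 7.57 CPM and muscle-like cells 23.8, 17.9 and 7.73 CPM. Within each library the pericyte-like value was the highest of the 6 classes. The part of the muscle markers in these pericyte-like cells in this and the other pericyte-like values was not tested. Pericyte-like cells exceeded muscle-like cells by 1.64 ± 0.46 on the log2 scale (edgeR adjusted p = 0.02746, 12.1% of genes passing), and fibroblast-like cells by 1.18 ± 0.46, which did not pass (edgeR adjusted p = 0.08133). The first call was lost without PLV replicate 1 (1.77 ± 0.65, edgeR adjusted p = 0.1505) and without the mixed library (1.50 ± 0.54, edgeR adjusted p = 0.08743), and also with DESeq2 and without the library block. Without PLV replicate 2 the second passed (1.66 ± 0.43, edgeR adjusted p = 0.01697). Lymphatic endothelial-like and Schwann-like cells had no Ptgir UMI. Against the floor of 3 counts in lymphatic endothelial-like cells, the pericyte-like level was 64.1-fold, 17.2-fold and 9.57-fold higher.

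Ptger2 (ENSMUSG00000037759, chromosome 14, 44988111 to 45003820), a receptor that raises cyclic AMP, was scarce, with 13, 4 and 14 UMIs over all kept cells. Pericyte-like cells held 2, 2 and 3 of them (11.2, 16.0 and 8.0 CPM), and its intervals there overlapped those of blood endothelial-like cells. Its distribution over classes could not be resolved at this depth. Ptger4 (ENSMUSG00000039942, chromosome 15, 5233399 to 5244187), which also raises cyclic AMP, stood at 23.3, 20.7 and 20.3 CPM in blood endothelial-like cells and 21.9, 13.0 and 18.1 CPM in lymphatic endothelial-like cells. These neighbours differed by 0.27 ± 0.41 on the log2 scale, which did not pass (edgeR adjusted p = 0.7568). Blood endothelial-like cells exceeded fibroblast-like cells, at 8.71, 11.1 and 0.946 CPM, by 1.73 ± 0.49 (edgeR adjusted p = 0.00816). That call was lost without the mixed library (1.16 ± 0.47, edgeR adjusted p = 0.06364). Macrophage-like cells held 66.9 and 33.7 CPM in PLV replicate 1 and the mixed library. Ptger4 was 21.4, 25.1 and 27.8 CPM in the capillary clusters and 4.19, 6.63 and 0 CPM in the Selp-led clusters, which rest on 2, 1 and 0 UMIs. Its order between those clusters was opposite to that of Ptgs1 in each library, although its intervals overlapped in both PLV libraries.

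Tbxa2r (ENSMUSG00000034881, chromosome 10, 81328268 to 81335174) was found in the muscle-like cells of every library, at 48.4, 38.5 and 41.1 CPM. Schwann-like cells held 23.3, 19.2 and 73.9 CPM from 11, 3 and 9 UMIs, and lymphatic endothelial-like cells 18.4, 29.1 and 44.7 CPM. Muscle-like cells were highest in both PLV libraries but not in the mixed library, where both other classes stood above them. They exceeded fibroblast-like cells by 2.31 ± 0.45 on the log2 scale (edgeR adjusted p = 0.0003704) but did not pass against Schwann-like cells (0.52 ± 0.52, edgeR adjusted p = 0.4884, 34.2% of genes passing) or lymphatic endothelial-like cells (0.65 ± 0.38, edgeR adjusted p = 0.188, 42.3% of genes passing). Without the mixed library the last difference was 1.01 ± 0.34 (edgeR adjusted p = 0.02083). Pericyte-like cells held 0, 0 and 8 Tbxa2r UMIs. Near-empty droplets of the mixed library held 9.99 CPM, as much as its fibroblast-like cells at 9.46 CPM.

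The muscle-like cells were divided into kinds by marker pairs: cells high in Ano1, a chloride channel, and Hmcn2 (137, 57 and 199 cells), cells high in Pln, the regulator of the calcium store pump, and Sorbs2 (283, 52 and 43 cells), and, in the mixed library only, 74 cells high in P2rx1 and Col12a1. Ptger3 (ENSMUSG00000040016, chromosome 3, 157566821 to 157644758) was the member that separated the kinds. It stood at 33.9, 19.7 and 54.5 CPM in Pln/Sorbs2 cells, from 50, 9 and 17 UMIs. In Ano1/Hmcn2 cells it stood at 1.40, 0 and 1.52 CPM, from 1, 0 and 2 UMIs, and in the P2rx1/Col12a1 cells at 0. Every library had the same order, and the lowest Pln/Sorbs2 value lay above the highest Ano1/Hmcn2 value, although the counting intervals overlapped in PLV replicate 2. The fitted difference was -5.06 ± 0.59 on the log2 scale for Ano1/Hmcn2 minus Pln/Sorbs2 (edgeR adjusted p = 3.362e-08), a fitted value that depends on the near-zero Ano1/Hmcn2 counts. Ptger3 passed the filter on low counts only through its Pln/Sorbs2 sums, where it was high, so its test is no separate support for that order. At least 1 UMI was found in 13.1%, 11.5% and 30.2% of Pln/Sorbs2 cells, at median depths of 4874, 8563 and 6565 UMIs, and in 0.730% and 1.01% of the Ano1/Hmcn2 cells of PLV replicate 1 and the mixed library, at median depths of 4449 and 6356. In PLV replicate 2, 0 of 57 Ano1/Hmcn2 cells had a UMI, with an exact binomial upper limit of 6.27% and a 3-count limit of 5.26%.

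Of the members, 4 could be tested between these kinds and 2 passed, 1 in each direction, where 32.3% of 7048 genes passed, 16.3% higher in Ano1/Hmcn2 and 16.0% higher in Pln/Sorbs2 cells. Ptgis was the other call, at 75.5, 49.6 and 31.8 CPM in Ano1/Hmcn2 cells against 23.1, 19.7 and 38.4 CPM in Pln/Sorbs2 cells. It was higher in Ano1/Hmcn2 cells in both PLV libraries and not in the mixed library. The fitted difference was 1.00 ± 0.32 (edgeR adjusted p = 0.01621), and the call was lost without PLV replicate 1 (0.29 ± 0.46, edgeR adjusted p = 0.7355), without PLV replicate 2 (0.90 ± 0.40, edgeR adjusted p = 0.1279) and with DESeq2 (DESeq2 adjusted p = 0.6072), and also without the library block and with at most 10% mitochondrial UMIs. No Ptgis UMI was found among the P2rx1/Col12a1 cells, against a floor of 3.63 CPM. Ptgir stood at 28.0, 3.10 and 8.34 CPM in Ano1/Hmcn2 cells and 21.7, 28.4 and 16.0 CPM in Pln/Sorbs2 cells, overlapping, and did not pass (-0.55 ± 0.45, edgeR adjusted p = 0.406). Tbxa2r was present in every kind, at 55.9, 43.4 and 40.9 CPM in Ano1/Hmcn2 cells, 44.8, 34.9 and 44.9 CPM in Pln/Sorbs2 cells and 39.9 CPM in the P2rx1/Col12a1 cells (0.06 ± 0.25, edgeR adjusted p = 0.8895), and its sign changed with the processing.

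**Figure D4:**
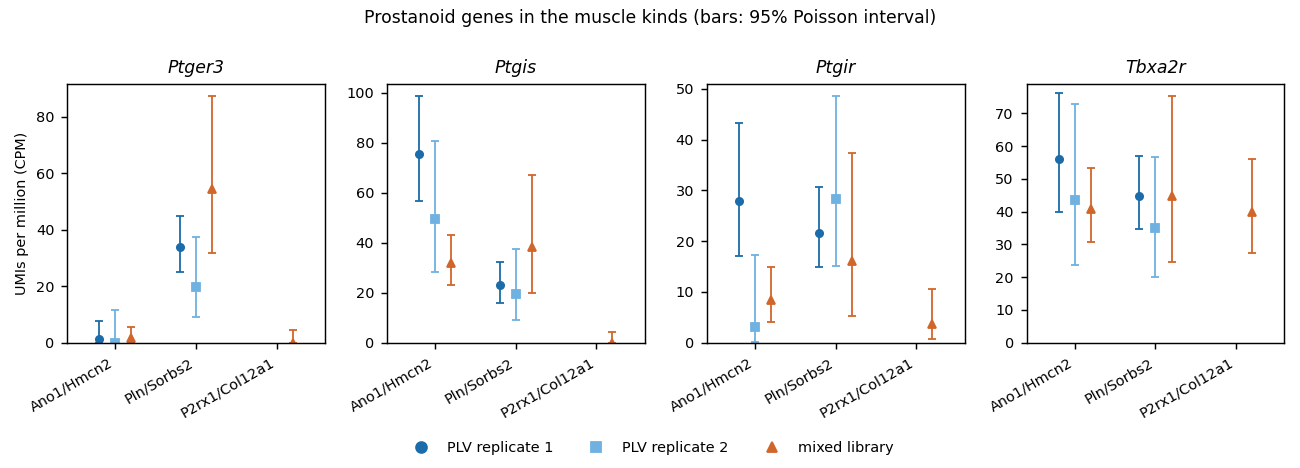
CPM of 4 receptors and enzymes in the muscle kinds, 1 point per library with its 95% Poisson interval. Ptger3 was at 19.7 to 54.5 CPM in Pln/Sorbs2 cells and at most 1.52 CPM in Ano1/Hmcn2 cells, while Tbxa2r lay between 34.9 and 55.9 CPM in all kinds. The P2rx1/Col12a1 kind was present in the mixed library only.

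When the mixed library is set against the PLV pair, the vessels, digestion time, enzymes, the pools of mice and the Cell Ranger version recorded in the file headers all differed, and Xist RNA was 654, 619 and 0.129 CPM, so these factors cannot be told apart. The single mixed library was assumed to vary like the PLV libraries, so the spread within groups in these tests came from the PLV pair alone, moderated across genes. With doublets kept the number of genes called went from 1239 to 1285 in fibroblast-like cells but from 1814 to 0 in muscle-like cells, so the p-values of this 2 against 1 comparison are unstable. In fibroblast-like cells 8 members were tested and 1 passed, where 11.8% of 10509 genes passed. That member was Ptgs2, lower in the mixed library (-2.88 ± 0.39 on the log2 scale, edgeR adjusted p = 2.79e-05). By cluster, Ptgs2 was at 107 CPM in the Inmt/Mmp3/Cxcl14 cluster of PLV replicate 1 against 22.3 CPM in the Cxcl14/C4b/C3 cluster of the mixed library, and 2.09 CPM (2 UMIs) in the Col4a4 cluster, which made up 138 of the 276 mixed fibroblast-like cells. Fibroblast markers in the fibroblast-like cells summed to 36178, 31804 and 88627 CPM, highest in the mixed library, and their part in the Ptgs2 difference was not tested. The libraries were clustered separately and their clusters were not matched, so a difference in the makeup of the fibroblast-like cells cannot be told apart. Near-empty droplets of the mixed library held 3 UMIs of Ptgs2, with an exact Poisson interval from 0.618 to 8.76 CPM that takes in the Col4a4 cluster's value. They also held 3 UMIs each of Ptger3 and Ptger4, with the same interval, which takes in the 0.946 CPM of Ptger4 in mixed fibroblast-like cells and the 1.52 CPM of Ptger3 in mixed Ano1/Hmcn2 cells. Immediate early genes, which respond to stimulation within minutes and were picked after the values were seen, differed in direction in the same cells. Nr4a1 stood at 340, 377 and 75.2 CPM, Egr1 at 2497, 3102 and 1346 CPM, Fos at 2480, 3286 and 2118 CPM and Atf3 at 275, 191 and 492 CPM. Jun (1202, 1853 and 1671 CPM) and Ier2 (702, 815 and 743 CPM) had mixed values between those of the PLV libraries. Their part in the Ptgs2 difference was not tested.

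The median log2 difference of the 8 tested members in fibroblast-like cells was -1.33, beside -0.015 over all genes. Ptger3 and Ptger4 passed the filter on low counts only through PLV libraries, where they were high. The median therefore cannot be read as a lower level shared by the members. Ptgis (-1.29 ± 0.48, edgeR adjusted p = 0.08892), Ptges (-0.88 ± 0.34, edgeR adjusted p = 0.103) and Ptgir (-1.36 ± 0.57, edgeR adjusted p = 0.1351) had negative values that did not pass. Ptger3 had 6, 9 and 0 UMIs in these cells, so its fitted value is no bound. Ptgs1 (0.09 ± 0.46, edgeR adjusted p = 0.9406), Ptger4 (-2.69 ± 1.24, edgeR adjusted p = 0.177) and Tbxa2r (1.27 ± 0.84, edgeR adjusted p = 0.3964) did not pass either. Scaling by library size alone moved the median of all genes in fibroblast-like cells to -0.57, and 6 members then passed, all lower in the mixed library, beside 1899 of 10509 genes, of which 1587 were lower.

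In muscle-like cells 4 members were tested and 1 passed, where 16.9% of 10732 genes passed. This was Ptgir, lower in the mixed library (-1.25 ± 0.43, edgeR adjusted p = 0.0288), and the call was lost with doublets kept, with finer clusters and with DESeq2. Within Ano1/Hmcn2 cells the mixed value lay between the PLV values, and within Pln/Sorbs2 cells it lay below both on 5 UMIs; neither was tested. Ptger3 was also lower over all muscle-like cells of the mixed library without passing (-1.08 ± 0.44, edgeR adjusted p = 0.07997), yet within Pln/Sorbs2 cells that library had the highest value, 54.5 CPM. Pln/Sorbs2 cells were 283 of 420, 52 of 109 and 43 of 316 muscle-like cells, and Ptger3 over all muscle-like cells was 23.3, 11.5 and 7.73 CPM. The part of this makeup in the difference was not tested. In blood endothelial-like cells 0 of 4 tested members passed with edgeR, where 2.40% of 10209 genes passed and 1635 had an unadjusted p under 0.05, and DESeq2 tested none of these members. Ptgs1 came nearest (0.83 ± 0.28, edgeR adjusted p = 0.1172). In lymphatic endothelial-like cells 0 of 3 passed with edgeR, where 0.789% of 8996 genes passed and 1196 had an unadjusted p under 0.05, and DESeq2 called none of the 1 it tested. Tbxa2r there was 1.21 ± 0.35 higher in the mixed library (edgeR adjusted p = 0.1196).

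The rest of the pathway was read from a list of 50 genes for substrate release, other synthases and receptors, transport, breakdown and signalling partners. All 50 were found in the feature tables, 1 of them (Fam213b) under the newer symbol Prxl2b. Of these, 36 were tested across classes and 33 passed, against the 65.8% of all genes given above. The first 10 in order of adjusted p were Pde4b, Adcy4, Adcy5, Mgll, Pde3a, Gnai2, Prkar1a, Prkacb, Adcy6 and Prkar2b, with edgeR adjusted p from 7.857e-12 to 2.872e-08. The list was built to hold genes of cyclic AMP signalling, the messenger system of Ptgir, Ptger2 and Ptger4.

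Adenylate cyclases make cyclic AMP, and their isoforms lay in different classes. Adcy4 stood at 143, 149 and 110 CPM in blood endothelial-like and at 66.5, 96.1 and 62.8 CPM in lymphatic endothelial-like cells, and at no more than 1.28 CPM in muscle-like cells. Adcy5 stood at 323, 287 and 200 CPM in muscle-like cells and at no more than 31.9 CPM in any other of the 6 classes. Adcy6 was highest in pericyte-like cells, at 297, 399 and 90.6 CPM, ahead of muscle-like cells at 175, 197 and 58.6 CPM. Both classes had their lowest value in the mixed library.

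Phosphodiesterases, which break cyclic AMP down, and the protein kinase A subunits it acts on also differed. Pde4b stood at 323, 297 and 244 CPM in lymphatic endothelial-like cells and 109, 76.9 and 85.8 CPM in muscle-like cells. Pde3a stood at 576, 586 and 367 CPM in muscle-like and 314, 255 and 283 CPM in pericyte-like cells. The catalytic subunit gene Prkacb was at 213, 258 and 179 CPM in muscle-like and 224, 239 and 173 CPM in pericyte-like cells. The regulatory subunit gene Prkar1a was highest in muscle-like cells, at 1107, 913 and 649 CPM. Prkar2b was highest in pericyte-like cells, at 112, 104 and 155 CPM. Gnai2, an inhibitory G protein subunit, was highest in blood endothelial-like cells (1008, 997 and 1163 CPM), and so was Mgll (677, 815 and 764 CPM), a lipase that can release the substrate of the cyclooxygenases.

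Between the muscle kinds 25 pathway genes were tested and 13 passed, 5 higher in Ano1/Hmcn2 cells and 8 higher in Pln/Sorbs2 cells, beside 32.3% of all genes, 16.3% and 16.0% by direction. With DESeq2 8 of 37 passed, beside 1301 of 10923 genes. Over the edgeR settings the count ran from 9 of 23 without PLV replicate 1, beside 1275 of 5641 genes, to 17 of 42 without the filter, beside 2665 of 15402 genes. Slco2a1, the prostaglandin uptake transporter, stood at 172, 155 and 94.0 CPM in Ano1/Hmcn2 cells, from 123, 50 and 124 UMIs, and had no UMI in the Pln/Sorbs2 cells of any library. Against the floor of 3 counts it was 84.5-fold, 23.7-fold and 9.78-fold higher in Ano1/Hmcn2 cells, and it was 1.21 CPM in the P2rx1/Col12a1 cells. Rapgef3, the cyclic AMP sensor Epac1, followed the same order at 134, 112 and 37.1 CPM against 5.43, 0 and 9.61 CPM. Gnai1 was at 141, 102 and 236 CPM against 17.0, 13.1 and 41.7 CPM. Gnaq (0.98 ± 0.21, edgeR adjusted p = 0.0003535) and Akr1b3 (0.65 ± 0.25, edgeR adjusted p = 0.04521) completed the first group.

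The second group, with Ptger3, held the cyclic AMP phosphodiesterase Pde4b at 153, 114 and 247 CPM in Pln/Sorbs2 cells against 18.2, 24.8 and 25.0 CPM in Ano1/Hmcn2 cells, and Mgll at 212, 214 and 202 CPM against 32.2, 62.0 and 57.6 CPM. Adcy9 (-1.78 ± 0.25, edgeR adjusted p = 7.517e-07), Gna12 (-1.50 ± 0.21, edgeR adjusted p = 8.306e-07) and the kinase A catalytic gene Prkaca (-1.56 ± 0.23, edgeR adjusted p = 1.344e-06) were lower in Ano1/Hmcn2 cells, and so, by under 1 on the log2 scale, were Gna11, Prkar1a and Ptgr2. The CPM values of Pde4b, Slco2a1, Rapgef3, Gnai1 and Mgll did not overlap between the kinds, although the counting intervals of Rapgef3 did in the mixed library. The P2rx1/Col12a1 cells stood between the kinds for Mgll and Pde4b (110 and 122 CPM).

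Between PLV and mixed libraries, 11 of 37 tested pathway genes passed in muscle-like cells (4 higher in the mixed library), 8 of 37 in fibroblast-like cells (5 higher), 0 of 32 in blood endothelial-like cells and 1 of 27 in lymphatic endothelial-like cells, all with edgeR, beside 16.9%, 11.8%, 2.40% and 0.789% of all genes. In muscle-like cells none of 37 passed with doublets kept, where 0 of 10855 genes did, and 2 of 30 with DESeq2, beside 205 of 8374 genes. In fibroblast-like cells DESeq2 called 1 of 9, beside 235 of 2292 genes, and scaling by library size alone called 9 of 37, of which 1 was higher. The lymphatic endothelial-like call was not made in 6 of the 8 alternatives. DESeq2 called none of 8 in blood endothelial-like cells. In fibroblast-like cells Slco2a1 stood at 91.4, 79.8 and 5.68 CPM, and Daglb, which makes the lipid that Mgll cleaves, at 687, 293 and 11.4 CPM. Both were lower in the mixed library (-3.36, edgeR adjusted p = 3.19e-05, for Slco2a1 and -4.88, edgeR adjusted p = 1.448e-06, for Daglb), and so was Pde3a (-2.55, edgeR adjusted p = 0.0004437). The 5 that were higher there were Gnai1 (2.47), Prxl2b (1.89), Adcy7 (1.49), Cbr1 (1.45) and Gna11 (1.12), with edgeR adjusted p from 0.0003261 to 0.03895. Daglb, Prxl2b, Adcy7 and Cbr1 were named after their values were seen.

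For each member with at least 50 UMIs in the 18 class sums, the 3 tested genes with the most similar log2(CPM + 1) pattern were listed by Pearson's r over those sums, which share libraries and mostly low values and so carry no p. For Ptgs1 these were Edn1 (r = 0.98), Plaur and Tek. For Ptgs2 they were Cyp2f2 (0.996), Dpp4 and Myoc, for Ptgis Chrd (0.94), Osr2 and Adgrd1, and for Ptges Ifi211 (0.95), Fbn1 and Ifi204. For Ptgir they were Tbx18 (0.96), C1s1 and Ggt5. Ptger3 (Zbtb7c, 0.85, Osr2 and Emx2os), Ptger4 (Asah2, 0.91, Kti12 and Slc10a6) and Tbxa2r (Med28, 0.85, Haus8 and Cisd1) had weaker neighbours.

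Ptgis, Ptges, Ptger2, Ptger4 and Ptgs1 overlap other annotated genes, on the opposite strand for Ptgs1, Ptgis, Ptger2 and Ptger4 and on the same strand, a processed pseudogene, for Ptges. Whether counting used the strand is not given in the sources used here, so reads from these neighbours cannot be told apart in these data.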

How the data were processed

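Cells of 2 PLV libraries and 1 mixed library were profiled with the 10x Genomics 3′ assay. The deposited values are UMI counts per gene and barcode, made with Cell Ranger (6.1.2 for the PLV libraries, 4 for the mixed library, per the file headers). The submitters' processing notes also name GRCm38 and Seurat. Aligner settings and the annotation release were not given in the sources used here. Gene positions and promoters are from RefSeq on GRCm38.p6, and strands and overlapping genes are from GENCODE.

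A barcode was kept when it had 500 or more UMIs over 300 or more genes, with mitochondrial RNA up to 15% and hemoglobin RNA up to 20% of them; 10, 3 and 3 predicted doublets were removed. Each library was clustered on its own (scanpy 1.11.5, 2000 variable genes, 50 components, 15 neighbours, Leiden resolution 1). A cluster took the class whose marker list had at least 3 genes at 2-fold or more over other cells. The erythroid list was left out of naming after a hemoglobin-rich endothelial cluster was seen. The keratinocyte-like cluster of PLV replicate 1 also held all 7 muscle and all 7 pericyte markers, at 10141 and 3129 CPM beside 8528 CPM of its own. A muscle-like cluster took the kind whose marker pair was most above the other muscle-like cells.

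UMIs were summed per library and class. edgeR 4.0.16 (quasi-likelihood, TMM factors, filterByExpr, Benjamini-Hochberg over all genes) tested the 6 classes and the kinds with library as a block, and PLV against mixed without one; 15 class pairs were computed. On simulated counts with 200 genes changed 4-fold, 96% were called among classes, 82% between kinds and 69% between PLV and mixed muscle-like cells. The simulation gave all genes the same fixed dispersion and changed only genes with higher counts than several members had. Its shares therefore do not describe the members with low counts or the spread of the real libraries. DESeq2 1.42.0 was an alternative. Shares of cells have exact binomial intervals. Named pathway genes were the first 10 by class test and those that passed between kinds; Daglb, Prxl2b, Adcy7, Cbr1, Hpgds, Tbxas1, Ptges3, Hpgd and Pla2g4a were named after their values were seen. The members and lists were chosen with earlier results of these data known.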

Additional observations from a re-analysis of the deposited data

Results flagged for a closer look

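In 3 cases the mixed library lay on the other side from both PLV libraries. The log2 ratio of Ptgis between Ano1/Hmcn2 and Pln/Sorbs2 cells was 1.67 and 1.29 in PLV replicates 1 and 2 and -0.26 in the mixed library. For Tbxa2r between the same kinds it was 0.32, 0.31 and -0.13. For Tbxa2r between muscle-like and Schwann-like cells it was 1.03, 0.97 and -0.83, the last resting on 9 UMIs in 38 Schwann-like cells. These ratios are of CPM with 1 added, and the differences between library groups were not tested. How often such patterns arise at these counts, with 2 libraries against 1, was not measured.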

How the results depend on the processing

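Each result was recomputed with at least 1000 UMIs per cell, at most 10% mitochondrial UMIs, doublets kept, Leiden resolutions 0.5 and 2, DESeq2, library size alone, no filter on low counts and, where a fit allowed, without each library and without the library block. The count of 6 members differing among classes, of 6 tested, ran from 6 to 8 in all of these, of 6 to 10 tested. Beside it, the genes called ran from 5175 of 10149 without PLV replicate 1 to 8269 of 19372 without the filter. Of the 4 members tested between muscle kinds, 2 were called. With at most 10% mitochondrial UMIs 1 of 4 was called (beside 2191 of 6962 genes), with DESeq2 1 of 5 (1301 of 10923) and without the library block 1 of 4 (1500 of 7048). Leaving out a library gave 0 of 2 without PLV replicate 1 (1275 of 5641), 1 of 4 without PLV replicate 2 (2019 of 8686) and 2 of 4 without the mixed library (2409 of 7444). Ptger3 could not be tested without PLV replicate 1, and Ptgis lost its call without either PLV library. Ptger3 was called in each setting that tested it. At resolution 0.5 the mixed library had no cluster of the Pln/Sorbs2 kind (229 Ano1/Hmcn2 and 74 P2rx1/Col12a1 cells), so Pln/Sorbs2 sums came from the PLV libraries alone. In muscle-like cells between PLV and mixed, 1 of 4 members became 0 of 5 with doublets kept. There edgeR called 0 of 10855 genes (2339 at an unadjusted p under 0.05), against 1814 called before. The member count became 0 of 4 with resolution 2 (beside 1531 of 10703 genes) and 0 of 4 with DESeq2 (205 of 8374). It became 2 of 5 with resolution 0.5 (2057 of 10814) and 2 of 4 with library size alone (1880 of 10732). In fibroblast-like cells 1 of 8 members became 4 of 7 with at least 1000 UMIs (beside 1775 of 10084 genes) and 2 of 7 with resolution 2 (1677 of 10449). It became 6 of 8 with library size alone (1899 of 10509) and 3 of 9 without the filter (1439 of 15596). In blood endothelial-like cells 0 of 4 became 1 of 4 with resolution 0.5 (505 of 10262 genes). In lymphatic endothelial-like cells 0 of 3 became 1 of 5 without the filter (207 of 15184). The number of all genes called also moved by over 1.5 times: between kinds from 2276 to 1301 with DESeq2, 1500 without the block and 1275 without PLV replicate 1; in muscle-like cells from 1814 to 205 with DESeq2; in fibroblast-like cells from 1239 to 235 with DESeq2 and 1899 with library size alone; in blood endothelial-like cells from 245 to between 15 (at least 1000 UMIs) and 505 (resolution 0.5); and in lymphatic endothelial-like cells from 71 to between 12 (resolution 2) and 207 (no filter). Library size alone moved the median of all genes to -0.24 in muscle-like, -0.17 in blood endothelial-like and -0.25 in lymphatic endothelial-like cells and to 0.17 between kinds. Chosen after seeing the data, leaving out the cell with the most Ptgs2 UMIs gave 125, 72.8 and 8.09 CPM in fibroblast-like cells and 85.8 and 46.4 CPM in macrophage-like cells. The 24 shares recomputed for Ptgs1, Ptgs2, Ptges, Ptgis, Ptgir, Ptger3 and Tbxa2r, each in the classes or kinds where it was described, were all lower after thinning. The cause of these moves was not tested.

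Signs changed only for differences that did not pass. For Tbxa2r between kinds the value was -0.15 with at most 10% mitochondrial UMIs, -0.0046 with DESeq2, -0.016 without the filter and from -0.083 to 0.15 when a library was left out. For Tbxa2r between muscle-like and Schwann-like cells, leaving out a library gave -0.021 to 1.10. For Tbxa2r between PLV and mixed muscle-like cells it was -0.10 with at most 10% mitochondrial UMIs and -0.12 with library size alone. For Ptgs1 in fibroblast-like cells it was -0.0061 with resolution 2 and -0.47 with library size alone. For Ptger4 in blood endothelial-like cells it was -0.0089, -0.0070, -0.015 and -0.14 with the mitochondrial limit, doublets kept, resolution 2 and library size alone, and for lymphatic endothelial-like cells -0.039 with the last. No paired analysis was possible because replicate numbers do not tie a PLV library to the mixed one. Leaving out a PLV library from the PLV against mixed tests was not run, since 1 library against 1 leaves no residual degrees of freedom. Limits are 3 libraries, low counts of most receptors and a mixed library that stands alone.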

Other observations

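Of the 7 synthases in the pathway list, Hpgds and Tbxas1 were picked after their values were seen. In PLV replicate 1 and the mixed library they had their highest levels among named classes in immune ones. PLV replicate 2, with no named immune class, held 18 Hpgds and 14 Tbxas1 UMIs over all kept cells. The other 5 synthases were also found in muscle-like and fibroblast-like cells of every library. Ptges3, for example, stood at 212, 228 and 184 CPM in muscle-like cells and 176 and 135 CPM in macrophage-like cells. Hpgds, the hematopoietic prostaglandin D2 synthase, stood at 570 CPM in the 23 mast-like cells of PLV replicate 1 and at 48.6 and 50.5 CPM in the macrophage-like cells of PLV replicate 1 and the mixed library. Tbxas1, the thromboxane synthase, stood at 76.0 and 39.3 CPM in these macrophage-like cells. In muscle-like cells, where the receptor gene Tbxa2r was found, Tbxas1 was at 0 in every library. Hpgd, which inactivates prostaglandins and was likewise picked after its values were seen, was 182 and 56.1 CPM in macrophage-like cells and 42.5, 17.7 and 24.1 CPM in fibroblast-like cells.

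Pla2g4a, the cytosolic phospholipase that releases arachidonic acid, also picked this way, was at 44.1, 57.6 and 17.0 CPM in fibroblast-like cells and at 0 in lymphatic endothelial-like cells, the class with the most Ptgs1. Slco2a1 was highest in those lymphatic endothelial-like cells, at 475, 545 and 396 CPM. The keratinocyte-like cells of PLV replicate 1 held 37 Ptgs1 UMIs in 3 of 106 cells, or 110 CPM, but all 7 muscle markers were found in that cluster too, at 10141 CPM beside 8528 CPM of its own markers.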
